A study of Mus musculus with 12 samples.

Results

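Messenger RNA of 9 genes of the T cell receptor complex and of the signalling steps next to it was followed in injured mouse brain. The genes were Cd3d, Cd3e, Cd3g, Cd247, Cd2, Cd4, Cd8a, Lck and Zap70. They were found by their symbols through the Ensembl identifiers of the deposited tables, and each matched 1 identifier, the same in both tables. The sham and TBI table held 35697 genes, and the vehicle and zileuton table held 55637. All mice were adult male C57BL/6J mice of 20 to 25 g. TBI is traumatic brain injury, made here by controlled cortical impact (CCI), a blow to the exposed cortex with a tip of 3 mm at 1.5 m/s to a depth of 1.5 mm for 100 ms. In the batch of 2018, 3 sham mice had the surgery without the blow and 3 TBI mice were sampled at 7 days. In the batch of 2022, all 6 mice were injured, and 3 of them received zileuton, an inhibitor of 5-lipoxygenase, in corn oil into the peritoneum at 10 mg per kg per day. The other 3 mice of 2022 are labelled as injured only and are called the vehicle group here. The source labels give 7, 8 and 9 days for the zileuton mice, whereas their library names give 7. For the vehicle mice both give 7 days, so by the source labels the day differs between these groups. The table of 2022 numbers its columns 2, 3 and 6 in either group, and those numbers name the mice below. RNA came from brain tissue that the methods place around the contusion, and no cells were sorted. Whether each library is from 1 mouse is stated only through n = 3 per group.

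The T cell receptor binds antigen through a pair of variable chains and passes the signal on through the CD3 chains and the zeta chain, which carry tyrosine motifs that the kinase Lck phosphorylates. The kinase Zap70 then docks on these motifs and phosphorylates adaptor proteins. Cd4 and Cd8a are the co-receptors that mark helper and cytotoxic T cells, and T cells are scarce in the uninjured brain.

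Cd3g, Cd3d and Cd3e lie together on chromosome 9 of GRCm38 in GENCODE M21, within 40056 bases. Cd3g runs from 44969572 to 44980431 on the minus strand and Cd3d from 44981786 to 44987339 on the plus strand, and the starts of these neighbours are 1355 bases apart and point away from each other. Cd3e runs from 44998740 to 45009627 on the minus strand. Cd247, the zeta chain gene, lies on chromosome 1 from 165788681 to 165877277 on the plus strand. The 250 bases before the RefSeq start of each of these 4 genes are given here 5′ to 3′ on the strand of the gene, because Cd3g was the gene of the set that passed the test after TBI, Cd3d and Cd3e are its neighbours, and Cd247 was the gene with the lowest p-value under zileuton. Capitals mark AGGAAG, the core bound by ETS factors, and CACCTG, an E-box, on either strand.
Cd3g: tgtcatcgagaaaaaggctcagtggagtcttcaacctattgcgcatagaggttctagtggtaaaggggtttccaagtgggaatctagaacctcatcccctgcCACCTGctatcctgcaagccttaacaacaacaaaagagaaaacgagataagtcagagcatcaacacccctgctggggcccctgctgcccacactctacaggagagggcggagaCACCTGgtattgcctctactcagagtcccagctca
Cd3d: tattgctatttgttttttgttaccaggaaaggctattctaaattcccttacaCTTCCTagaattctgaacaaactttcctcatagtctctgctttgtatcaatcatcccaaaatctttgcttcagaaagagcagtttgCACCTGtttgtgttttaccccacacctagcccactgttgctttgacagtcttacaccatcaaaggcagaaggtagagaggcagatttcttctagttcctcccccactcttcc
Cd3e: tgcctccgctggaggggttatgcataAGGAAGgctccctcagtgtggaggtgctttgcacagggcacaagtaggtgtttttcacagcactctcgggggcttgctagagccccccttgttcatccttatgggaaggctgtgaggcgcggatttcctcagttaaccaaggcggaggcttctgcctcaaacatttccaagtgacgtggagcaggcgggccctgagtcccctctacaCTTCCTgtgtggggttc
Cd247: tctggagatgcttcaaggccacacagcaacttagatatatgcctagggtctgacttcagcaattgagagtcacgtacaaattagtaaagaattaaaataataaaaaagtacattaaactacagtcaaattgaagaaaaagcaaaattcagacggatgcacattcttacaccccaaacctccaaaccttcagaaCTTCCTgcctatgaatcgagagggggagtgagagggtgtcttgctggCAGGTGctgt
The windows are chr9:44980432-44980681 (minus strand) for Cd3g, chr9:44981536-44981785 (plus strand) for Cd3d, chr9:45009612-45009861 (minus strand) for Cd3e and chr1:165788431-165788680 (plus strand) for Cd247, all on GRCm38.p6 from RefSeq. Cd3g held 2 E-boxes and no ETS core, Cd3e held 2 ETS cores and no E-box, and Cd3d and Cd247 held 1 of each. Of all 32851 windows of this length in the table, 29.5% held the ETS core and 17.2% held the E-box. TGTGGT, the RUNX core, and TATAAA, the TATA box, were searched in the same way. Neither was in any of the 4 windows, whereas 14% and 12.4% of all windows held them. The motifs do not contain one another, and a match of letters is a description only. The table also had windows for Cd8a, Lck and Zap70.

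The other genes lie on chromosome 3 (Cd2, 101275899 to 101287939), chromosome 6 (Cd4, 124864692 to 124888221, and Cd8a, 71373427 to 71379173), chromosome 4 (Lck, 129548344 to 129573641) and chromosome 1 (Zap70, 36761798 to 36782818). No other gene model overlapped Cd2, Cd3d, Cd3g, Cd4 or Cd8a. The 3′ part of Cd247 shares 12124 bases with Pou2f1 on the opposite strand. Cd3e shares 3557 bases with Gm48719 on the opposite strand. On the same strand Cd247 shares 687 bases with Gm16565, and Cd3e 1206 bases with Gm48720. Gm16565 had 2, 3 and 5 counts in sham libraries and 16, 7 and 10 after TBI. In 2022 it had 9, 2 and 2 with vehicle and 8, 3 and 1 with zileuton. Whether counting used the strand is not given in the sources used here, so reads in the opposite-strand stretches cannot be told apart. Strand would not separate reads in the same-strand stretches.

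Libraries added up to 42929862 to 48684674 counts in 2018 and to 27845562 to 35453257 in 2022. In 2018 the deposited counts were whole. Even numbers made up 62.3% to 64.4% of the values between 1 and 20, and limits near 0 are therefore given for 3 and for 6 counts. In 2022 the counts were estimates, of which 13.7% were not whole. CPM are counts scaled by edgeR's TMM factors to 1000000 per library. All floors and intervals cover counting error only. As a check of the labels, Gfap, a filament gene of reactive astrocytes, had 6723 to 10221 counts in sham libraries and 110256 to 126444 after TBI (log2 fold change 3.72, SE 0.172, adjusted p = 5.67e-06 from edgeR).

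Most of the 9 genes stood near the detection limit, taken here as a mean under 10 counts per library in a group. In sham mice 6 of 9 were under it, namely Cd3d, Cd3e, Cd3g, Cd247, Cd2 and Cd8a. After TBI in 2018 it was 3 of 9, Cd3d, Cd3e and Cd2. In the vehicle group it was 5 of 9, Cd3d, Cd3e, Cd3g, Cd2 and Cd8a, and in the zileuton group 5 of 9, Cd3d, Cd3e, Cd3g, Cd247 and Cd8a. Cd4, Lck and Zap70 were above the limit in all 4 groups. The plot of deposited counts sets the genes beside these limits.

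**Figure D1:**
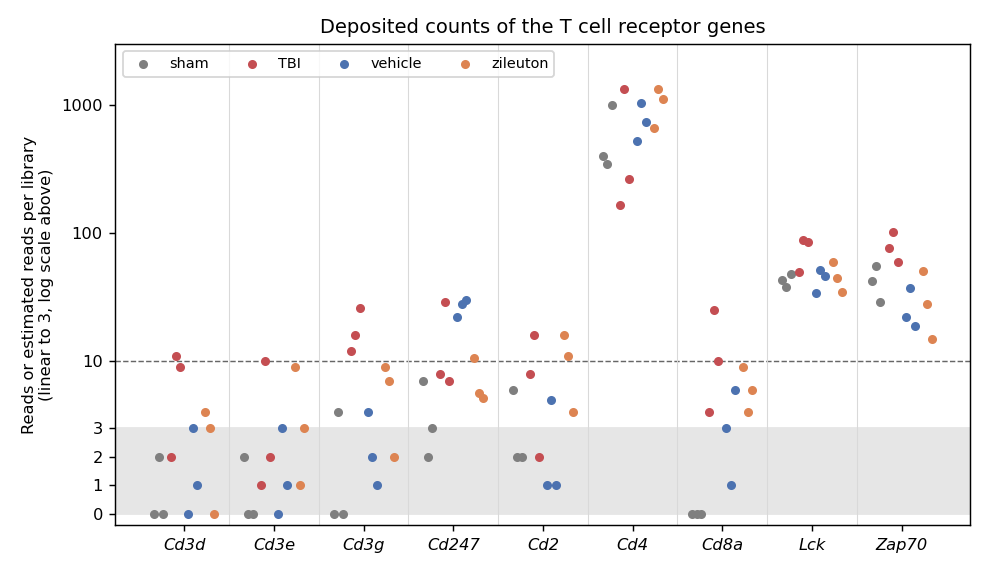
Deposited counts of the 9 T cell receptor genes, 1 point per library, for sham and TBI mice of 2018 and vehicle and zileuton mice of 2022. The vertical axis is linear up to 3 and logarithmic above, the grey band covers counts up to 3 and the dashed line stands at 10; Cd4 sits between 166 and 1343 counts, whereas the CD3 chains reach at most 26.

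Per length, the order of the genes was led by Cd4 in every group. In sham mice Cd4 had 3.06 ± 1.86 FPKM (SD, n = 3), Lck 0.311 ± 0.0324 and Zap70 0.299 ± 0.0952, and the 6 others lay at or below 0.0410 FPKM on average. Lck and Zap70 did not differ beyond their spread, and the 6 lowest genes rested on 0 to 7 counts per library and cannot be ordered. After TBI Cd4 had 3.14 ± 3.39 FPKM, Zap70 0.574 ± 0.136 and Lck 0.558 ± 0.181, followed by Cd3g with 0.122 ± 0.0570 FPKM (SD, n = 3 each). The others after TBI had means of 0.0229 FPKM for Cd3e to 0.106 FPKM for Cd2, within each other's spread. In the vehicle group Cd4 had 25.2 ± 8.74 TPM, Lck 2.55 ± 0.945, Cd247 1.33 ± 0.196 and Zap70 1.15 ± 0.403, and the others were at or below 0.163 TPM on average (SD, n = 3 each). In the zileuton group Cd4 had 40.9 ± 14.1 TPM, Lck 2.80 ± 0.477 and Zap70 1.37 ± 0.589 (SD, n = 3 each). Cd2 followed at 0.653 ± 0.380, Cd3g at 0.523 ± 0.381 and Cd247 at 0.390 ± 0.135 TPM (SD, n = 3 each), and the others were at or below 0.24 TPM on average. FPKM of 2018 and TPM of 2022 were made separately and are not set against each other. Thus a kinase pair and a co-receptor gene were read well above the CD3 chains in the same libraries.

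The comparison of TBI with sham asks how injury changed these genes. Of the 9 genes, 4 passed edgeR's filter on low counts, and 1 of these, Cd3g, rose. Over all 19536 genes tested, 28.0% had an adjusted p under 0.05 and 16.8% rose, while 11.2% fell. An unadjusted p under 0.05 was reached by Cd3g, Lck and Zap70, 3 of the 4, beside 39.6% of all genes tested. Cd3g passed the filter only through its counts after TBI, so its call is not support for the set. In bulk tissue, fewer or more cells of a type and less or more RNA per cell cannot be told apart.

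The CD3 gamma chain gene Cd3g had 0, 4 and 0 counts in sham libraries and 12, 16 and 26 counts after TBI. Every TBI library was above every sham library. The log2 fold change was 3.64 (SE 0.962, adjusted p = 0.0219 from edgeR), and the mean rose from 0.0287 ± 0.0497 to 0.389 ± 0.184 CPM (SD, n = 3 each). The call was lost without sham mouse 1 (adjusted p = 0.0767), without sham mouse 3 (0.0772) or without TBI mouse 3 (0.0723), each from edgeR. Without sham mouse 2, the only sham library with a count, it stood at adjusted p = 0.0144. The log2 fold change ran from 3.07 without sham mouse 3 to 7.18 without sham mouse 2, where the sham libraries left were at 0 and the fitted value is no bound.

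The CD3 delta chain gene Cd3d had 0, 2 and 0 counts in sham libraries and 2, 11 and 9 counts after TBI. The totals of 2 and 22 counts give a ratio of 10.7 after scaling, with an exact 95% counting interval of 2.63 to 93.9. The CD3 epsilon chain gene Cd3e had 2, 0 and 0 counts in sham libraries and 1, 10 and 2 after TBI, a ratio of 6.32 (1.43 to 57.7). TBI mouse 2 held most of the Cd3e counts, and the groups overlapped. Since counts of 2018 were more often even, both totals were also halved after the values were seen, and the intervals widened to 1.56 to 460.6 for Cd3d and 0.875 to 306.9 for Cd3e, which then includes a ratio of 1. Neither gene passed the filter. Without a filter their adjusted p were 0.144 and 0.399 from edgeR.

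Cd247, which encodes the zeta chain, had 7, 2 and 3 counts in sham libraries and 8, 29 and 7 after TBI. TBI mouse 2 stood apart from the other TBI mice, and TBI mouse 3 only equalled sham mouse 1 in counts. Cd247 did not pass the filter, and without it the log2 fold change was 1.77 (SE 0.812, adjusted p = 0.176 from edgeR). Summed over Cd3d, Cd3e and Cd3g, the CD3 chains had 0.0451, 0.129 and 0 CPM in sham libraries and 0.303, 0.758 and 0.847 CPM in TBI mice. All 3 TBI libraries were above all 3 sham libraries in this sum, which rested on 15 to 37 counts after TBI and 0 to 6 in sham libraries.

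The co-receptor gene Cd8a had no count in any sham library and 4, 25 and 10 counts after TBI. A count of 0 allowed up to 0.0635 to 0.0676 CPM in the sham libraries with 3 counts as the limit. The mean after TBI, 0.274 ± 0.219 CPM (SD, n = 3), was therefore at least 4.20-fold higher with 3 counts per sham library in place of 0, or at least 2.10-fold higher with 6. TBI mouse 2 held 25 of the 39 counts, and without it these bounds were 2.38 and 1.19. TBI mouse 1, with 4 counts, lay under the limit of 6. Cd8a did not pass the filter. Without a filter its adjusted p was 0.00633 from edgeR, and leaving out 1 mouse at a time, chosen after that value was seen, it ran from 0.000617 to 0.0591, the highest without TBI mouse 2. Its partner chain Cd8b1 likewise had 0 counts in all sham libraries and 4, 7 and 13 after TBI.

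Cd2, an adhesion receptor of T and NK cells, had 6, 2 and 2 counts in sham libraries and 8, 16 and 2 after TBI. The groups overlapped, and without a filter the log2 fold change was 1.26 (SE 0.965, adjusted p = 0.463 from edgeR). The highest of the 6 libraries was TBI mouse 2 for 7 of the 9 genes and TBI mouse 3 for Cd3g and Lck.

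**Figure D2:**
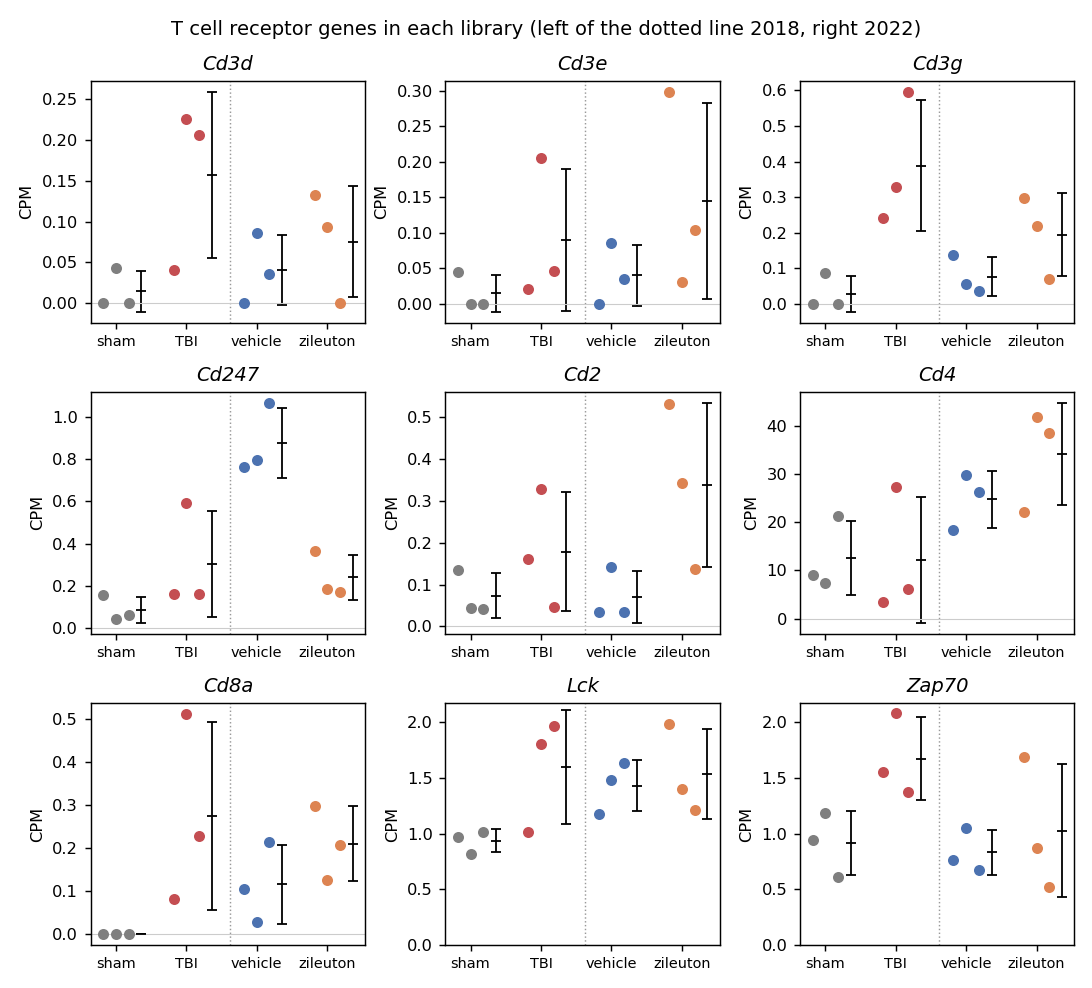
CPM of each of the 9 genes in each library, on a linear axis of its own for each gene, with the mean and SD (n = 3) to the right of each group and a dotted line between the batches of 2018 and 2022. Cd8a is at 0 in the 3 sham libraries, Cd3g is higher in all 3 TBI libraries than in any sham library, Cd247 is lower in all 3 zileuton libraries than in any vehicle library, and Cd4 overlaps in both comparisons.

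The kinase genes were read at higher levels. Lck, the kinase that acts first on the CD3 chains, had 43, 38 and 48 counts in sham libraries and 50, 88 and 86 after TBI. TBI mouse 1 lay within the sham range at 1.01 CPM, and the other TBI mice lay above it at 1.80 and 1.97 CPM. The log2 fold change was 0.79 (SE 0.323, adjusted p = 0.104 from edgeR), and it passed without TBI mouse 1 (adjusted p = 0.0391). Zap70, the kinase recruited next, had 42, 55 and 29 counts in sham libraries and 77, 102 and 60 after TBI, from 0.915 ± 0.287 to 1.67 ± 0.371 CPM (SD, n = 3 each). Every TBI library was above every sham library, which held for 24.6% of all genes tested. The log2 fold change of 0.89 (SE 0.328) had an adjusted p of 0.0754 from edgeR and did not pass.

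Cd4 overlapped between sham and TBI mice. It had 399, 348 and 1010 counts in sham libraries and 166, 1330 and 265 counts after TBI. The group means, 12.6 ± 7.61 and 12.2 ± 13.1 CPM (SD, n = 3 each), lay close together while the libraries spread 8.12-fold from lowest to highest in the batch. The log2 fold change was -0.03 (SE 0.694, adjusted p = 0.982 from edgeR), and its sign turned when library totals alone set the scale (0.037). TBI mouse 1 and sham mouse 3 had 15 and 0 CD3 counts beside 166 and 1010 Cd4 counts, whereas TBI mouse 2 had the highest Cd4 count, 1330, with 37 CD3 counts, as many as TBI mouse 3.

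Genes most like Cd4 were looked for after this spread was seen, over the 12 libraries with each group's mean subtracted and among 16516 genes tested in both comparisons. The 8 with the highest Pearson correlation of log2 CPM were Pcp4l1 (0.989), Rgs9 (0.987), Penk (0.987), Drd2 (0.986), Asic4 (0.984), Syndig1l (0.983), Ppp1r1b (0.982) and Slc32a1 (0.982). Drd2 encodes a dopamine receptor, Penk the enkephalin precursor and Ppp1r1b the phosphoprotein DARPP-32, and these with Rgs9 are known for high expression in projection neurons of the striatum. Slc32a1 encodes the vesicular transporter of GABA. Drd1 and Adora2a, further striatal receptor genes picked with the values known, had correlations of 0.968 and 0.964.

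Drd2 had 21.7, 22.7 and 52.1 CPM in sham libraries and 9.95, 75.5 and 14.4 CPM after TBI. Cd4 had 8.99, 7.49 and 21.4 CPM and 3.36, 27.2 and 6.07 CPM in the same mice. Both genes were thus highest in TBI mouse 2, next in sham mouse 3 and lowest in TBI mouse 1. The quotient of the CPM of Cd4 and Drd2 stayed between 0.330 and 0.421 in the 6 libraries of 2018 and between 0.288 and 0.396 in those of 2022. In 2018 such a quotient varied more for the other genes of the 8, for instance 0.037 to 0.117 for Pcp4l1 and 0.22 to 0.31 for Syndig1l. This did not hold in 2022, where it varied less for Rgs9 (0.213 to 0.235) and Syndig1l (0.302 to 0.381) than for Drd2. The correlation of Cd4 with Drd2 was 0.990 within 2018 and 0.954 within 2022, Spearman's rho over all 12 libraries was 0.902, and without TBI mice 1 and 2, the farthest from the median of Cd4, Pearson's r was 0.960. These are descriptions over 12 libraries of 2 batches, and the amount of striatum in a piece of tissue was not measured. Over the same libraries the correlation with Drd2 was 0.313 for Lck and -0.12 for Zap70, and over the 9 injured libraries that of Cd4 with the summed CD3 chains was 0.198. The plot of Cd4 against Drd2 shows the libraries of each batch.

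**Figure D3:**
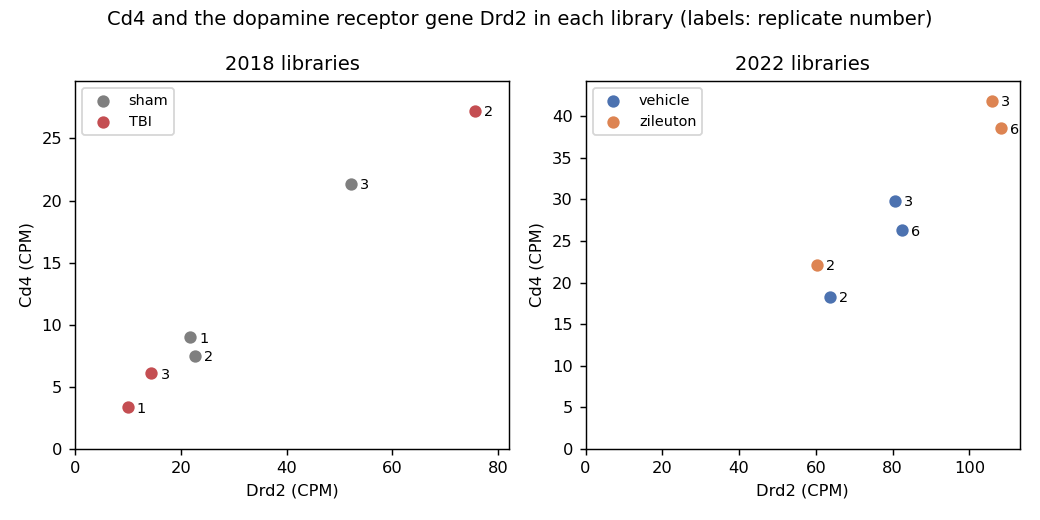
CPM of Cd4 (vertical) against CPM of Drd2 (horizontal), 1 point per library labelled with its replicate number, for the batches of 2018 (left) and 2022 (right), both axes from 0. The points rise together in either batch, from TBI mouse 1 with 3.36 CPM of Cd4 and 9.95 of Drd2 to TBI mouse 2 with 27.2 and 75.5 in 2018.

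The comparison of zileuton with vehicle asks how the drug changed these genes in injured brain. Again 4 of the 9 genes passed the filter, Cd247, Cd4, Lck and Zap70, and none passed the adjusted threshold. The background was 0% of 17363 genes with edgeR, where the lowest adjusted p was 0.185. An unadjusted p under 0.05 was reached by 1186 genes (6.83%) and by 1 of the 4, Cd247, and DESeq2 called 26 genes, none of them among the 9.

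Cd247 had 22.2, 28.1 and 30.3 estimated counts in the vehicle group and 10.6, 5.62 and 5.2 in the zileuton group. All zileuton libraries were below all vehicle libraries, as for 7.04% of the genes tested. The mean was 0.875 ± 0.165 CPM with vehicle and 0.242 ± 0.107 CPM with zileuton (SD, n = 3 each; log2 fold change -1.83, SE 0.406, unadjusted p = 0.00186, adjusted p = 0.713 from edgeR). Over the other settings its adjusted p ran from 0.285 to 0.929, and leaving out 1 mouse at a time from 0.299 to 0.977, so it did not pass under any. Its estimated counts were not whole in any of the 6 libraries, whereas those of 7 of the 9 genes were whole in all 6. Pou2f1, which overlaps its 3′ part, had 499 to 786 estimated counts with vehicle and 647 to 819 with zileuton, also not whole (log2 fold change 0.28, SE 0.119, adjusted p = 0.713 from edgeR). The part of shared reads in the value of Cd247 was not tested.

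The CD3 chains had few counts in either group. Cd3g had 4, 2 and 1 counts with vehicle and 9, 7 and 2 with zileuton. Cd3e had 0, 3 and 1 counts with vehicle and 9, 1 and 3 with zileuton. Cd3d had 0, 3 and 1 counts with vehicle and 4.02, 3 and 0 with zileuton. The groups overlapped in each of the 3 genes, and zileuton mouse 2 had the highest CPM in all of them. Summed, the chains had 0.139, 0.228 and 0.106 CPM with vehicle and 0.729, 0.343 and 0.173 CPM with zileuton. Cd247 thus had a lower mean and the CD3 genes of the same complex a higher summed mean with zileuton, and no test passed for any of them. Without a filter the adjusted p of Cd3d, Cd3e and Cd3g were 0.885, 0.787 and 0.787 from edgeR.

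Cd2 had 1, 5 and 1 counts with vehicle and 16, 11 and 4 with zileuton. The groups overlapped by counts of 5 and 4. Without a filter its log2 fold change was 2.13 (SE 0.816, unadjusted p = 0.0164, adjusted p = 0.689 from edgeR). Cd8a had 3, 1 and 6 counts with vehicle and 9, 4 and 6 with zileuton, overlapping as well (adjusted p = 0.787 without a filter, edgeR).

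Lck had 34, 52 and 46 counts with vehicle and 60, 45 and 35 with zileuton, and the means were 1.43 ± 0.231 and 1.53 ± 0.406 CPM (SD, n = 3 each). Zap70 had 22, 37 and 19 counts with vehicle and 51, 28 and 15 with zileuton. In both genes the zileuton group held the highest library, mouse 2, and Zap70 also had its lowest in that group. The log2 fold changes were 0.10 for Lck (SE 0.281, adjusted p = 0.940) and 0.30 for Zap70 (SE 0.447, adjusted p = 0.887), both from edgeR, and without zileuton mouse 2 they turned to -0.12 and -0.24.

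Zileuton mouse 2 was the highest of the 6 libraries for 7 of the 9 genes. The exceptions were Cd247 (vehicle mouse 6) and Cd4 (zileuton mouse 3). Cd4 had 528, 1047 and 741 counts with vehicle and 667, 1343 and 1116 with zileuton (log2 fold change 0.47, SE 0.261, adjusted p = 0.721 from edgeR). The groups overlapped, and Drd2 again had its lowest values where Cd4 did, 63.7 CPM in vehicle mouse 2 and 60.2 in zileuton mouse 2.

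Other genes of the pathway were taken from 5 lists of 91 genes in all. After TBI 70 were tested, of which 32 rose and 3 fell, where 16.8% of all genes tested rose and 11.2% fell. The median of their log2 fold changes was 0.74, beside a median of 0.02 for every gene tested, and it stays the same with genes at 0 in every sham library set to their bounds. Leaving out 1 mouse at a time gave 27 to 34 called genes, and 32 without TBI mouse 2. Many of these genes also act in other white blood cells, so the lists are read beside markers of such cells below.

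Of the receptor chains' constant regions and Cd8b1, 3 of 8 genes were tested and 1, Trbc2, fell, beside 11.2% of all genes tested. Trbc2 encodes a constant region of the beta chain and has a near-identical copy, Trbc1, so the split of reads between them is uncertain. Trbc2 had 809, 487 and 747 counts in sham libraries and 374, 268 and 453 after TBI, lower in all TBI mice as for 19.8% of the genes tested (log2 fold change -0.91, SE 0.260, adjusted p = 0.0307 from edgeR). Trbc1 had 0 counts in all sham libraries and 1, 4 and 22 after TBI. Trac, the constant region of the alpha chain, had 20, 24 and 20 counts in sham libraries and 8, 24 and 28 after TBI, and its adjusted p was 0.917 from edgeR. Trbc2 thus moved against Cd3g, and per length it stood far above Trac in sham libraries, at 20.9 against 0.484 FPKM.

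Of 35 genes of proximal receptor signalling 32 were tested, 14 rose and 2 fell (16.8% and 11.2% over all genes tested), with a median log2 fold change of 0.38. The most significant rises were in Ptprc, the phosphatase CD45, with 88 to 126 counts in sham libraries and 1257 to 1580 after TBI (log2 fold change 3.79, SE 0.188), in the adaptor gene Fyb (3.08, SE 0.166), in the exchange factor gene Vav1 (2.59, SE 0.162) and in Ptpn6, the phosphatase SHP-1 (3.00, SE 0.187). All of these genes are also used by myeloid cells. The fallers were Skap1, an adaptor, with 123, 68 and 80 counts in sham libraries and 36, 38 and 40 after TBI (log2 fold change -1.27, SE 0.318, adjusted p = 0.0175 from edgeR), and Rasgrp1, an activator of Ras (-0.42, SE 0.110, adjusted p = 0.0214). Rasgrp1 and the adaptor Grb2 had the highest levels of the list per length, 102 and 56.5 FPKM in sham libraries, and Grb2 had a log2 fold change of -0.04 (SE 0.0723, adjusted p = 0.695 from edgeR).

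Of 20 co-receptor genes 14 were tested, 5 rose and none fell (16.8% and 11.2% over all genes tested). The risers were Cd48, Lag3, Havcr2, Cd5 and Cd28. Cd48, a ligand of CD2 carried by most white blood cells, had 34, 22 and 23 counts in sham libraries and 473, 401 and 663 after TBI (log2 fold change 4.27, SE 0.315, adjusted p = 3.25e-05 from edgeR). Lag3, an inhibitory receptor, had 201 to 261 counts in sham libraries and 1617 to 3239 after TBI (3.50, SE 0.282). Cd5, a receptor of T cells and some B cells, had 4, 4 and 3 counts in sham libraries and 22, 16 and 16 after TBI (2.23, SE 0.502, adjusted p = 0.0110 from edgeR). Cd28, the co-stimulatory receptor of T cells, which was outside the 4 genes of lowest p and is named because the count is small, had a log2 fold change of 2.06 (SE 0.503).

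Of 18 genes of T cell identity and homing 17 were tested, 10 rose and none fell (16.8% and 11.2% over all genes tested). Il2rg, the common gamma chain of cytokine receptors, had 7, 9 and 26 counts in sham libraries and 159, 256 and 285 counts with TBI (log2 fold change 4.05, SE 0.478, adjusted p = 0.000408 from edgeR). Ccr7, a homing receptor, rose by 3.25 on the log2 scale (SE 0.444).

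Of 10 genes of cytotoxic and effector products 4 were tested and 3 rose, beside 16.8% of all genes tested. The 3 were Ccl5, Gzmb and Gzma, which passed the filter through the TBI group, where they are high. The chemokine gene Ccl5 had 0, 0 and 2 counts in sham libraries and 124, 272 and 191 after TBI, a ratio of 285.5 with an exact 95% counting interval of 78.7 to 2363, or 50.9 to 11330 with halved totals. The granzyme gene Gzmb, at 0 counts in every sham library, had 22, 20 and 16 counts with TBI and was at least 6.24-fold higher against 3 counts per sham library, or at least 3.12-fold against 6. Gzma had 4, 0 and 0 counts in sham libraries and 29, 74 and 46 after TBI (log2 fold change 5.07, SE 0.879, adjusted p = 0.00316 from edgeR). Ifng, the gene of interferon gamma, had 0 counts in all 6 libraries, which with 3 counts as the limit allows up to 0.0687 CPM.

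**Figure D4:**
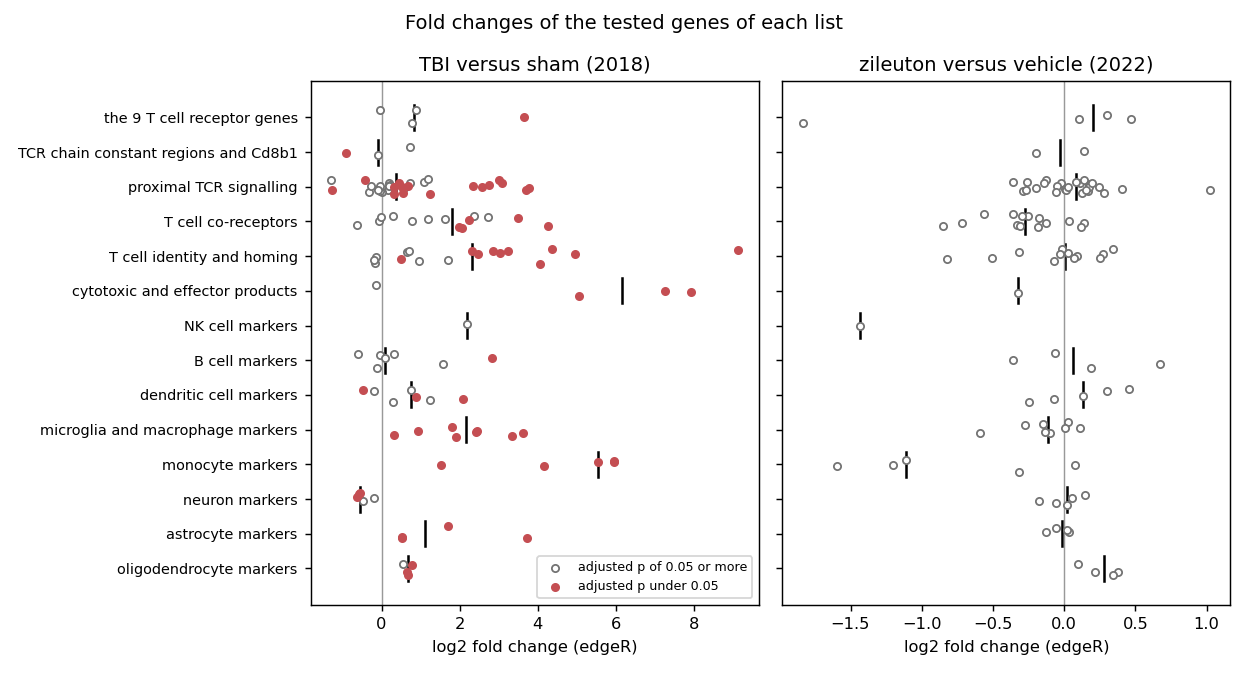
Log2 fold changes from edgeR for the tested genes of the 9-gene set, the 5 pathway lists and 8 marker lists, TBI against sham on the left and zileuton against vehicle on the right, with different horizontal scales. Each circle is a gene, filled where the adjusted p was under 0.05, and the black bar is the median of the list; filled circles appear on the left panel only.

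Markers of other white blood cells were read in the same libraries, where 16.8% of all genes tested rose and 11.2% fell. All 8 markers of microglia and macrophages rose after TBI, from a summed level of 218 to 251 CPM in sham libraries to 735 to 952 CPM, with Cx3cr1, Csf1r, Cd68 and Adgre1 the most significant (log2 fold changes 1.91, 1.81, 3.62 and 3.35). All 5 monocyte markers rose, among them Plac8, Ccr2 and Ly6c2 (log2 fold changes 5.95, 4.16 and 5.53). Their summed level went from 43.4 to 46.4 CPM in sham libraries to 124.5 to 157.8 CPM, most of it Fn1, the gene of fibronectin, which other cells also make and which had a mean of 44.5 CPM in sham libraries and 126 CPM after TBI. Of 9 NK cell markers 1 was tested, Klrd1, with 12, 0 and 8 counts in sham libraries and 18, 34 and 41 after TBI (log2 fold change 2.19, SE 0.805, adjusted p = 0.0738 from edgeR). The NK list summed to 0.212 to 0.316 CPM in sham libraries and 1.13 to 2.29 CPM after TBI. Its defining genes Ncr1 and Klrb1c were at 0 in every sham library, and had 8, 6 and 0 and 6, 9 and 5 counts with TBI, in the range of the CD3 chains. Of 10 B cell markers 7 were tested and 1, Cd79b, rose (2.82, SE 0.355), beside the 16.8% of all genes that rose, and of 8 dendritic cell markers 7 were tested, Siglech and Clec9a rose and Zbtb46 fell. Summed, the B cell list had 28.2 to 49.0 CPM in sham libraries and 38.9 to 48.5 CPM after TBI, and the dendritic list 35.3 to 39.7 and 45.0 to 49.5 CPM. Most of the B cell sum was Ighm, the heavy chain gene of immunoglobulin M, with a mean of 39.4 CPM in sham libraries and 41.1 CPM after TBI (adjusted p = 0.802 from edgeR). The largest part of the dendritic sum was Siglech, with a mean of 15.19 CPM in sham libraries and 27.49 CPM after TBI. Zbtb46 went from 12.02 to 8.608 CPM and Flt3 from 7.573 to 6.518 CPM. The remaining genes of the dendritic list had higher means after TBI, of at most 1.661 CPM (Batf3). The higher dendritic sum was thus mostly that of Siglech. The part of these cells in the rise of the pathway genes was not tested. Of the brain's own cells, all 4 astrocyte markers and 3 of 4 oligodendrocyte markers rose and 3 of 5 neuron markers fell.

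Under zileuton 56 of the 91 pathway genes were tested and none passed the adjusted threshold by edgeR or DESeq2. An unadjusted p under 0.05 was reached by 3 of the 56, all lower, beside 6.83% of all genes in either direction and 3.90% in this one. Among them were Nck1, an adaptor (log2 fold change -0.27, SE 0.113), and Slamf1, a co-receptor of lymphocytes (-0.85, SE 0.322), each with an adjusted p of 0.713 from edgeR. Slamf1 had 21.7, 31.6 and 25.1 estimated counts with vehicle and 11.0, 17.9 and 14.0 with zileuton, with no overlap, and these were not whole. The median log2 fold change of the 56 was -0.02. Trbc2 had 151 to 249.8 estimated counts with vehicle and 152.7 to 248 with zileuton (0.14, SE 0.232). Ly6c2 and Chil3, markers of monocytes, had log2 fold changes of -1.11 (SE 0.395) and -1.59 (SE 0.458) at adjusted p = 0.713 from edgeR. The other monocyte markers Plac8, Ccr2 and Fn1 had -1.20, -0.32 and 0.08. Gzma and Gzmb had 19 and 21 counts in all with vehicle and 9 each with zileuton, with no test since they did not pass the filter. Gzmk and Prf1, also not tested, had 2, 1, 2 and 4, 1, 3 counts with vehicle. With zileuton they had 6, 1, 2 and 7, 1, 0, so these effector genes did not all go lower.

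Genes most like the CD3 chains were sought over the 9 injured libraries, with group means subtracted, by the correlation of log2 CPM with the log2 of the summed CPM of Cd3d, Cd3e and Cd3g. The 8 highest were Cdca8 (0.993), Tle3 (0.966), A930003O13Rik (0.966), Itgam (0.957), Cd72 (0.953), Pdrg1 (0.949), Klhl36 (0.946) and Sdc3 (0.945), among 16516 genes. Itgam encodes an integrin of myeloid cells, Cd72 a receptor of B cells and Cdca8 a protein of dividing cells. The sum rested on 3 to 37 counts per library, and by Spearman's rho only 2 of these 8 were among the highest 8.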

How the data were processed

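Gene expression was compared in brain RNA of 12 mice, 3 per group, within the batches of 2018 (sham, TBI) and 2022 (vehicle, zileuton) only. Per the labels, poly(A) RNA was made into paired-end libraries. For 2018 the authors deposited raw counts per gene and FPKM, and for 2022 the authors deposited TPM and estimated counts that are partly fractional. The submitters' processing notes name HISAT2, featureCounts, Subread, DESeq2 and GRCm39, without roles or versions. A plan for raw counts was kept by rounding the estimated counts of 2022. Columns of 2022 carry numbers that no label repeats and were used by group. No column was pooled or left out. Symbols were found for 34808 of 35697 and 52081 of 55637 identifiers.

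Counts were tested in R 4.3.3 with edgeR 4.0.16 (TMM, filterByExpr, two-sided quasi-likelihood test, SE from the log2 fold change and F), with p-values adjusted by Benjamini and Hochberg over all genes tested and a threshold of 0.05. P-values measure the spread between these mice. Alternatives were DESeq2 1.42.0, other scalings and filters, limma 3.58.1 on log2 FPKM or TPM with pseudocounts of 1 and 0.1, a two-sided two-sample test as the study names (equal variances assumed, and p-values adjusted here, whereas the study's threshold was unadjusted), halved counts for 2018, a length trend for 2022, a replicate block and leaving out each mouse. Positions came from GENCODE M21 and promoter windows from RefSeq, both on GRCm38 and not on the build of the files. Figures were drawn with matplotlib 3.10.9.

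The 9 genes and all lists were chosen with earlier results of these data known. Besides the 9, named genes were, of each pathway list and of the NK, B, dendritic, microglia and monocyte markers, up to 4 with the lowest adjusted p (or 2 with the lowest unadjusted p where none passed) and up to 2 with the highest level, together with Gfap, Cd68 and the 8 genes most like the CD3 chains. Some of these genes are not reported here, and Cd8b1, Trbc1, Cd28, Ifng, Pou2f1 and the genes compared with Cd4 were added with their values known.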

Additional observations from a re-analysis of the deposited data

How the results depend on the processing

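With TBI against sham, edgeR called 1 of the 4 genes of the set that were tested, beside 5479 of all 19536 genes. This count became 2 of 9 with DESeq2 and 2 of 9 without a filter (Cd3g and Cd8a in both). Over all 33230 genes these 2 fits called 6017 and 5547. The count became 0 with a mean count of at least 10 and 0 with halved counts, where Cd3g was no longer tested. These called 5468 of all 19501 and 5610 of all 17758 genes. It became 0 with limma on log2(FPKM + 1), 0 with that fit on genes of at least 0.5 FPKM and 0 with the two-sample test under equal variances. Leaving out 1 mouse at a time gave 0 to 3. The 35 called of 70 tested pathway genes became 20 of 34 with limma on genes of at least 0.5 FPKM, which called 4450 of all 15873 genes. With the equal-variance test they became 12 of 86, where 1284 of all 33230 genes were called. Without 1 mouse 27 to 34 pathway genes were called. With zileuton no alternative called any of the 9 genes or the pathway genes. The log2 fold change of Cd4 after TBI, -0.03, turned to 0.037 with library totals alone, 0.036 with the equal-variance test, and 0.57, 0.42 and 0.29 without sham mouse 3, TBI mouse 1 and TBI mouse 3 (range over mice -1.40 to 0.57). Under zileuton Lck turned to -0.02 without vehicle mouse 2 and -0.12 without zileuton mouse 2 (range -0.12 to 0.25), and Zap70 to -0.24 without zileuton mouse 2 (range -0.24 to 0.62). The cause of these changes was not tested. Of the 8 genes most like the CD3 chains 8 stayed with a prior count of 5 and 2 with Spearman's rho. With a replicate block 1 of the 9 genes and 34 pathway genes were called after TBI, and 0 of either under zileuton. Deviations of same-numbered mice from their group means correlated at -0.023, -0.094 and -0.033 in 2018 and at -0.28, 0.063 and -0.282 in 2022. Only 0.063 was above the highest correlation with a differently numbered mouse, 0.021. Means of 3 libraries tie these deviations to one another, so the values cannot decide whether the numbers pair the mice. A library's 3 counts stand for 0.0607 to 0.107 CPM, under which a level was not told from 0.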
